A study of Homo sapiens with 8 samples.

Results

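PLX4032 and a hairpin against MITF were combined in COLO829 cells, a human melanoma line that is established in culture and carries an activating BRAF mutation, and the interaction of the 2 perturbations was computed for each gene. The interaction is the change that PLX4032 made in cells with the MITF hairpin minus the change it made in cells with a scrambled hairpin. All 8 arrays of the series enter it, 2 in each of 4 groups, and all 18404 genes with a named probe set were tested. The 4 groups were shMITF cells given PLX4032, shMITF cells given DMSO, shSCR (scrambled) cells given PLX4032 and shSCR cells given DMSO. Every culture was grown in RPMI medium with 10% serum, infected with a pGIPZ vector, selected with puromycin for 2 days and kept for 24 h with 1 µM PLX4032 or its DMSO vehicle before total RNA was taken. No second MITF hairpin is named, and nothing in the labels tells whether samples A and B of a group were separate cultures, so the p-values reflect no more than the spread within these pairs, and that spread may be technical. The cells are 1 line in bulk culture, so fewer cells of a kind and less RNA per cell cannot be told apart.

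MITF is the transcription factor that sets melanocyte identity: it binds E-box sequences and drives genes of pigment synthesis, melanosome transport, survival and metabolism. Mutant BRAF keeps the kinases MEK and ERK active, which sustains cyclin D1, the ETS factors and a set of feedback inhibitors of the Sprouty and DUSP families. PLX4032, also called vemurafenib, blocks the mutant kinase, and melanoma cells that survive such drugs are known to occur both in states of high MITF and in states of low MITF with high receptor tyrosine kinase, neural crest or invasive gene expression.

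The values are log2 intensities, and every level, change and interaction below is on that scale unless another is named. An interaction of 0 means that the fold change by PLX4032 was the same with either hairpin, so that the fold changes of drug and hairpin multiply. An interaction of 1 means that the fold change by PLX4032 was 2 times as large in shMITF cells as in shSCR cells. A gene was called at an adjusted p under 0.05 in limma's test, over all 18404 genes. "Rose" and "fell" below stand for changes called in their own contrast. The PLX4032 changes with each hairpin make up the interaction, so they are given to describe it and not as further evidence.

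Both arrays of a group lay close together, with correlations over genes of 0.99734 to 0.99844, against 0.9628 to 0.9844 between groups. MITF itself, the targeted gene, read 10.07 and 10.08 in shMITF PLX4032 cells and 9.57 and 9.47 in shMITF DMSO cells, against 10.88 and 10.80 in shSCR PLX4032 cells and 10.44 and 10.46 in shSCR DMSO cells. The shMITF arrays were below the shSCR arrays under both treatments, by 0.76 under PLX4032 and 0.93 in DMSO, so the labels and the target go together. PLX4032 raised MITF mRNA with either hairpin, by 0.56 in shMITF cells and 0.39 in shSCR cells. The interaction of MITF was 0.17 ± 0.11 (SE) with an adjusted p of 0.415 and a 95% interval of -0.08 to 0.42.

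PLX4032 changed 33.7% of genes in shMITF cells (18.6% rose and 15.1% fell) and 34.1% in shSCR cells (17.3% rose and 16.8% fell). The hairpin changed 28.5% of genes under PLX4032 (13.5% rose and 15% fell) and 33.2% in DMSO (14.4% rose and 18.8% fell). Over all genes the PLX4032 response in shMITF cells and that in shSCR cells, which come from different arrays, had a Pearson r of 0.71 and a Spearman rho of 0.607; genes are not independent replicates, and no p is given. The interaction was called for 2176 genes, 11.8% of those tested, of which 1283 (6.97%) were positive and 893 (4.85%) negative. Its median over all genes was 0.0013, and the median SE of a gene was 0.133. The called interaction was at least 1 in size for 273 positive and 204 negative genes, at least 2 for 27 and 27, and at least 3 for 1 and 4. Single arrays weighed on these counts: the total was 1427 without shMITF DMSO A (543 negative), 1278 without shMITF DMSO B (702 positive and 576 negative) and 1431 without shSCR PLX4032 A (548 negative), and the positive calls numbered 828 without shSCR PLX4032 B.

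**Figure D1:**
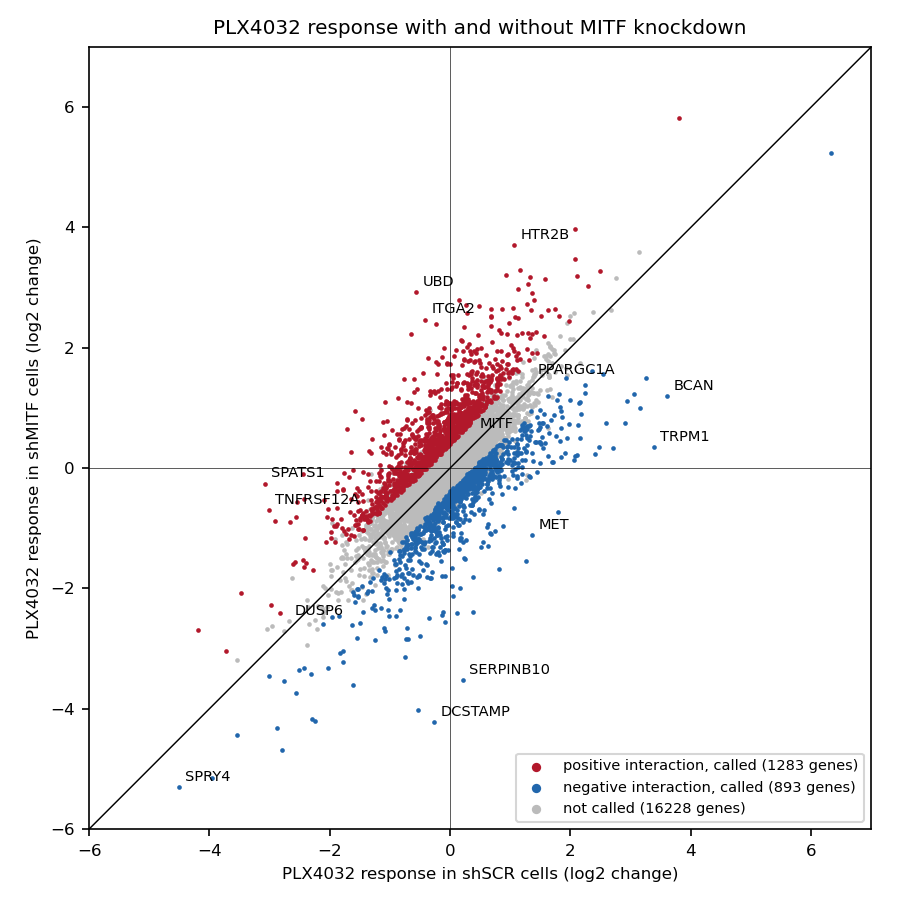
Each point is a gene, placed by its log2 change under PLX4032 in shMITF cells (vertical axis) and in shSCR cells (horizontal axis), each the difference of means of 2 arrays; the diagonal marks an interaction of 0. The 1283 called positive interactions lie above the diagonal, the 893 called negative ones below it, and PPARGC1A, DUSP6 and MITF lie close to it.

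The same sign of interaction covered different behaviours. Of the 1283 positive genes, 449 (35.0%) rose under PLX4032 in shMITF cells and were not called in shSCR cells, and 272 (21.2%) rose with both hairpins, by more in shMITF cells. A further 254 (19.8%) were not called in shMITF cells and fell in shSCR cells, 171 (13.3%) fell with both, by less in shMITF cells, and 135 (10.5%) rose in shMITF cells and fell in shSCR cells. Of the 893 negative genes, 257 (28.8%) were not called in shMITF cells and rose in shSCR cells, 241 (27.0%) fell in shMITF cells and were not called in shSCR cells, and 214 (24.0%) fell with both, by more in shMITF cells. Another 101 (11.3%) rose with both, by less in shMITF cells, and 70 (7.84%) fell in shMITF cells and rose in shSCR cells. Seen from the hairpin, the most frequent positive pattern was no called change under PLX4032 beside a fall in DMSO (419 genes), and the most frequent negative one was no called change under PLX4032 beside a rise in DMSO (287 genes). The sign depends on the log scale for a minority: with unlogged intensities, 2113 of the 2176 called genes kept the sign of their interaction and 63 turned it.

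**Figure D2:**
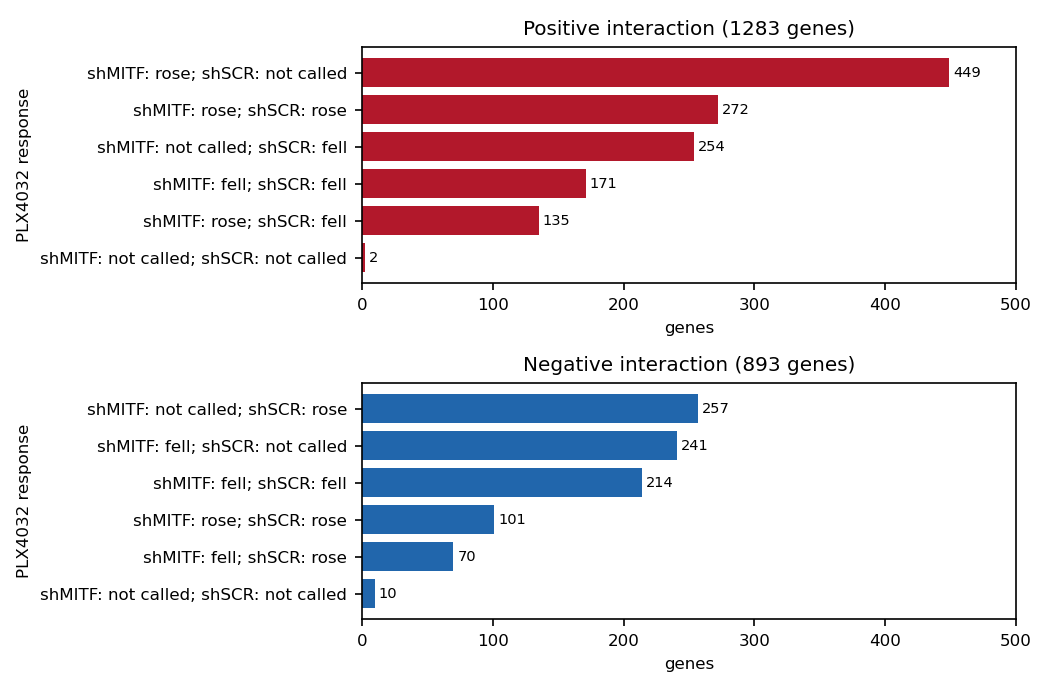
Bars count the called interaction genes by what PLX4032 did in shMITF cells and in shSCR cells (rose, fell or not called at an adjusted p of 0.05). The longest positive bar, 449 genes, holds rises in shMITF cells alone by this call, and the longest negative bar, 257 genes, holds rises called in shSCR cells and not in shMITF cells.

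The largest positive interactions were led by genes that rose under PLX4032 in knockdown cells and fell or were not called in scrambled cells. UBD, which encodes the ubiquitin-like protein FAT10, read 7.82 and 8.02 in shMITF PLX4032 cells and 5.03 and 4.95 in shMITF DMSO cells, against 4.50 and 4.91 in shSCR PLX4032 cells and 5.63 and 4.91 in shSCR DMSO cells. Only the shMITF PLX4032 arrays stood apart, above all 6 others, and the interaction was 3.49 ± 0.28 with an adjusted p of 2.27e-05. A second UBD probe set gave 1.99 with an adjusted p of 0.0016. ITGA2, the alpha subunit of a collagen-binding integrin, read 10.88 and 10.91 in shMITF PLX4032 cells and 8.43 and 8.42 in shMITF DMSO cells, against 7.78 and 7.88 in shSCR PLX4032 cells and 8.21 and 8.29 in shSCR DMSO cells. It rose by 2.47 with the MITF hairpin and fell by 0.42 with the scrambled one, an interaction of 2.89 ± 0.11 with an adjusted p of 4.08e-07. ABI3BP, a matrix protein, read 7.59 and 7.82 in shMITF PLX4032 cells and 4.92 and 4.88 in shMITF DMSO cells, against 4.69 and 4.58 in shSCR PLX4032 cells and 4.31 and 4.66 in shSCR DMSO cells. Its rise of 2.80 in shMITF cells stood beside an uncalled 0.15 in shSCR cells.

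The same form was seen for SYNE3, a nuclear envelope protein (interaction 2.88 ± 0.16), LINC00341, a non-coding transcript name without a current gene record in the table used (2.63 ± 0.14), and FLRT1, a leucine-rich repeat membrane protein (2.30 ± 0.15). FLRT1 rose by 2.58 in shMITF cells and was not called in shSCR cells at 0.28. DLX5, a homeobox factor (2.44 ± 0.12), rose with both hairpins, by 2.70 in shMITF cells and 0.26 in shSCR cells. DPYSL3, a cytoskeletal protein of migrating neurons, also rose with both, by 3.21 in shMITF cells and 0.94 in shSCR cells. PODXL, a sialomucin of the cell surface, read 10.77 and 10.78 in shMITF PLX4032 cells and 9.80 and 9.86 in shMITF DMSO cells, against 7.84 and 7.88 in shSCR PLX4032 cells and 9.41 and 9.48 in shSCR DMSO cells. PLX4032 thus moved PODXL in opposite directions, by 0.94 in shMITF cells and by -1.58 in shSCR cells, and it did likewise for SQOR, a mitochondrial sulfide oxidase (0.65 in shMITF cells and -1.72 in shSCR cells), and CXADR, an adhesion protein of cell junctions (0.82 in shMITF cells and -1.47 in shSCR cells).

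A different group of large positive interactions consisted of genes that PLX4032 lowered in scrambled cells and changed less, or not past the threshold, in knockdown cells. TNFRSF12A, the receptor of the cytokine TWEAK and an ERK-responsive gene, read 10.67 and 10.67 in shMITF PLX4032 cells and 11.35 and 11.39 in shMITF DMSO cells, against 7.71 and 7.92 in shSCR PLX4032 cells and 10.83 and 10.82 in shSCR DMSO cells. It fell by 0.70 in shMITF cells and by 3.01 in shSCR cells, and the interaction was 2.31 ± 0.13 with an adjusted p of 2.06e-06. Only the shSCR PLX4032 arrays were low. HEY1, a repressor downstream of Notch, had levels of 7.82 and 8.05 in shMITF PLX4032 cells and 8.09 and 7.98 in shMITF DMSO cells, against 7.79 and 7.69 in shSCR PLX4032 cells and 10.19 and 10.18 in shSCR DMSO cells. SPATS1, named for its expression in testis, read 4.72 and 4.55 in shMITF PLX4032 cells and 4.95 and 4.84 in shMITF DMSO cells, against 5.38 and 5.27 in shSCR PLX4032 cells and 8.26 and 8.54 in shSCR DMSO cells. For both genes the shSCR DMSO arrays alone were high: each perturbation on its own lowered the level (HEY1 by 2.44 with the drug and 2.14 with the hairpin, SPATS1 by 3.08 with the drug and 3.51 with the hairpin), and the sum of both changes would have put SPATS1 at 1.82, under the lowest value on any array, 2.1. HTR2B, a serotonin receptor, showed a further form, with 9.19 and 9.38 in shMITF PLX4032 cells and 5.69 and 5.47 in shMITF DMSO cells, against 8.96 and 9.21 in shSCR PLX4032 cells and 8.02 and 8.02 in shSCR DMSO cells. The hairpin lowered HTR2B by 2.44 in DMSO, whereas under PLX4032 the hairpin difference was 0.20 and not called, and the interaction was 2.64 ± 0.16.

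The largest negative interactions were of 2 forms. In the first, the hairpin raised a gene in DMSO and PLX4032 lowered it again in the knockdown cells. DCSTAMP, a membrane protein of cell fusion in osteoclasts and dendritic cells, read 4.07 and 3.81 in shMITF PLX4032 cells and 8.16 and 8.17 in shMITF DMSO cells, against 5.69 and 5.70 in shSCR PLX4032 cells and 5.89 and 6.03 in shSCR DMSO cells. It was highest in shMITF DMSO cells and lowest in shMITF PLX4032 cells, the interaction was -3.96 ± 0.14 with an adjusted p of 3.07e-07, and the fall under PLX4032 was 4.23 in shMITF cells beside an uncalled -0.27 in shSCR cells. SERPINB10, a serine protease inhibitor, read 3.92 and 3.97 in shMITF PLX4032 cells and 7.52 and 7.40 in shMITF DMSO cells, against 3.78 and 3.55 in shSCR PLX4032 cells and 3.39 and 3.51 in shSCR DMSO cells. CRLF2, a subunit of the receptor for the cytokine TSLP, read 3.71 and 3.35 in shMITF PLX4032 cells and 7.64 and 7.47 in shMITF DMSO cells, against 3.42 and 3.21 in shSCR PLX4032 cells and 3.98 and 3.71 in shSCR DMSO cells. For SERPINB10 and CRLF2 the shMITF DMSO arrays alone were high, and under PLX4032 the hairpin difference, 0.28 and 0.21, was not called for either. CYP24A1, the enzyme that inactivates vitamin D, followed with a hairpin rise of 2.42 in DMSO beside an uncalled 0.04 under PLX4032.

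CCN2, a secreted matricellular protein known as a target of YAP and TGF-beta, read 7.90 and 8.04 in shMITF PLX4032 cells and 10.37 and 10.35 in shMITF DMSO cells, against 8.92 and 8.84 in shSCR PLX4032 cells and 8.34 and 8.64 in shSCR DMSO cells. The hairpin raised it by 1.87 in DMSO and lowered it by 0.91 under PLX4032, and the interaction was -2.78 ± 0.15 with an adjusted p of 2.06e-06. PLN, the inhibitor of the sarcoplasmic calcium pump (-2.53 ± 0.17), and CORO2B, an actin-binding coronin (-2.47 ± 0.16), had the same change of direction, and FAM131B (-2.30 ± 0.20) kept a hairpin rise of 0.62 under PLX4032 beside 2.92 in DMSO. CST1, a cystatin whose probes may also read related cystatins, was the least precise of the 30 largest, at -2.80 ± 0.38. Its levels were 8.19 and 8.46 in shMITF PLX4032 cells and 9.75 and 9.98 in shMITF DMSO cells, against 6.68 and 5.65 in shSCR PLX4032 cells and 5.15 and 4.67 in shSCR DMSO cells.

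In the second form, PLX4032 raised a gene in scrambled cells and raised it less, or lowered it, in knockdown cells. TRPM1, the melanocyte ion channel melastatin and a known MITF target, read 5.43 and 5.21 in shMITF PLX4032 cells and 5.05 and 4.89 in shMITF DMSO cells, against 8.78 and 8.71 in shSCR PLX4032 cells and 5.42 and 5.32 in shSCR DMSO cells. Only the shSCR PLX4032 arrays were high: PLX4032 raised TRPM1 by 0.35 in shMITF cells and 3.38 in shSCR cells, an interaction of -3.03 ± 0.14 with an adjusted p of 1.11e-06. BCAN, the proteoglycan brevican, read 7.10 and 7.01 in shMITF PLX4032 cells and 5.96 and 5.75 in shMITF DMSO cells, against 9.64 and 9.42 in shSCR PLX4032 cells and 6.01 and 5.84 in shSCR DMSO cells. PLX4032 raised BCAN by 1.2 in shMITF cells and 3.61 in shSCR cells. The hairpin made no called difference to BCAN in DMSO (-0.07) and lowered it by 2.47 under PLX4032. DIPK1C, a membrane protein of the divergent protein kinase family, rose by 2.72 in shSCR cells beside an uncalled 0.34 in shMITF cells.

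MET, the receptor of hepatocyte growth factor, moved in opposite directions: it read 8.08 and 7.93 in shMITF PLX4032 cells and 9.12 and 9.13 in shMITF DMSO cells, against 11.48 and 11.29 in shSCR PLX4032 cells and 10.01 and 10.04 in shSCR DMSO cells. No groups overlapped, and the interaction was -2.48 ± 0.13 with an adjusted p of 1.91e-06, made of a fall of 1.12 in shMITF cells and a rise of 1.36 in shSCR cells. SOCS6, a suppressor of cytokine and receptor kinase signalling, behaved likewise, with -0.73 in shMITF cells and 1.79 in shSCR cells and an interaction of -2.52 ± 0.12. SLC45A2, a melanosomal transporter, read 6.62 and 6.90 in shMITF PLX4032 cells and 8.44 and 8.41 in shMITF DMSO cells, against 9.57 and 9.48 in shSCR PLX4032 cells and 8.61 and 8.80 in shSCR DMSO cells. The hairpin difference in DMSO was not called for SLC45A2 at -0.28, and under PLX4032 it was -2.76. All 30 of these largest interactions stayed called without any 1 of the 8 arrays. Of the 30, 8 lay among the dimmest 40% of genes (UBD, SPATS1, ABI3BP, SERPINB10, CRLF2, PLN, CYP24A1 and DIPK1C), and no file used here gives their signal over background.

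**Figure D3:**
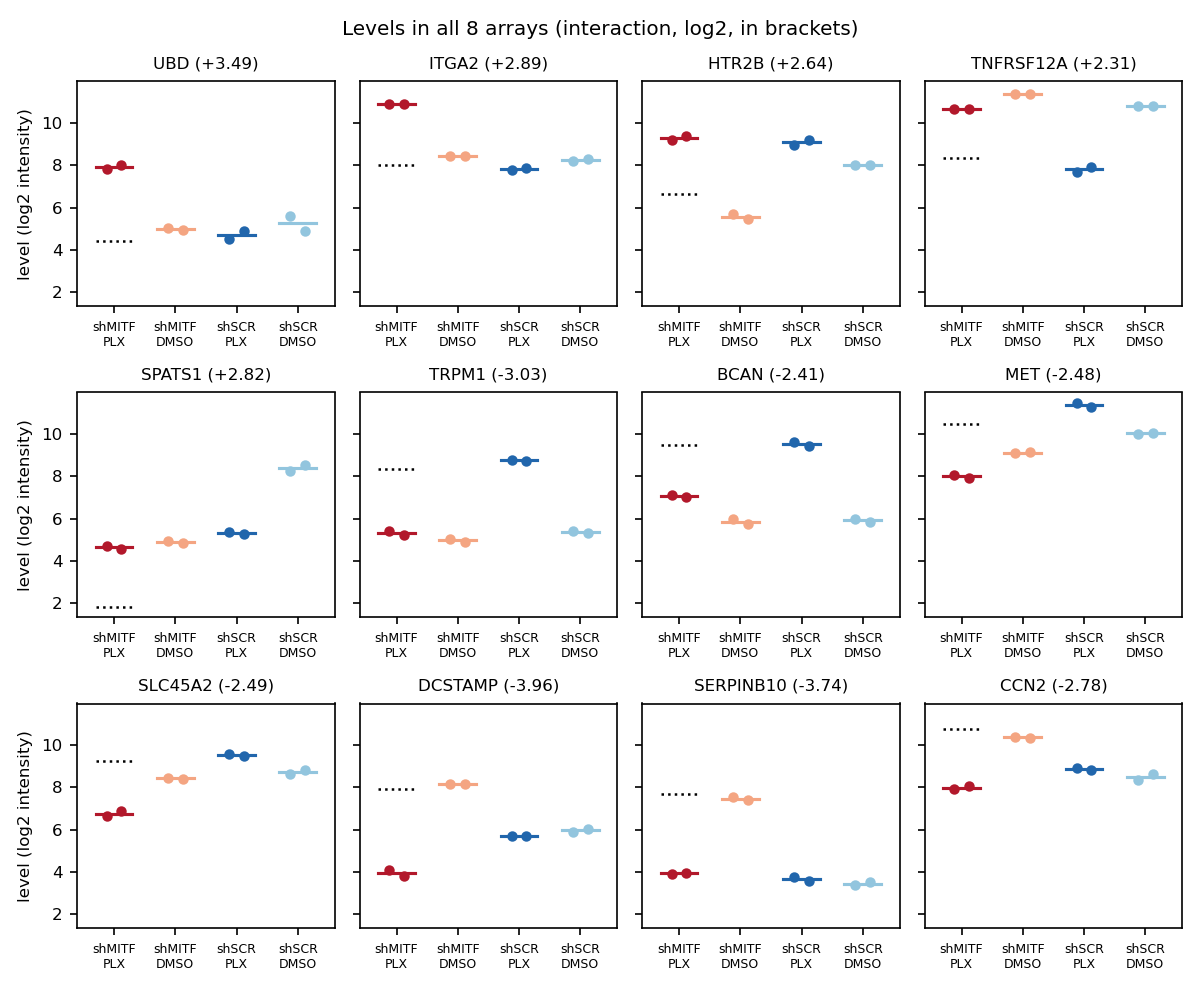
Points are the log2 intensities of 12 genes on each of the 8 arrays, by group, with a bar at the mean of each pair; the dotted line over shMITF PLX4032 is the level that the separate drug and hairpin changes would add up to. In UBD and ITGA2 the shMITF PLX4032 points lie above the line, and in TRPM1, MET, DCSTAMP and SERPINB10 they lie below it.

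The promoter windows of the largest interaction in each direction that the RefSeq table holds are shown, because the members move in opposite senses and the letters let a reader look for sites. Each is the 250 bases before the annotated start in GRCh38.p14, on the gene's strand from 5′ to 3′, in lower case with any match to 5 searched motifs in capitals. The motifs, read on both strands, were TCATGTG (the form of E-box that MITF prefers), CACGTG (the E-box shared with TFEB, TFE3 and MYC), TGANTCA (AP-1), the interferon-stimulated response element (GAAA, any 2 bases, GAAA) and CCGGAAG (ETS). The UBD window is chr6:29559733-29559982 (minus strand) and the TRPM1 window is chr15:31161161-31161410 (minus strand). Neither holds any of the 5 motifs in these letters.
UBD: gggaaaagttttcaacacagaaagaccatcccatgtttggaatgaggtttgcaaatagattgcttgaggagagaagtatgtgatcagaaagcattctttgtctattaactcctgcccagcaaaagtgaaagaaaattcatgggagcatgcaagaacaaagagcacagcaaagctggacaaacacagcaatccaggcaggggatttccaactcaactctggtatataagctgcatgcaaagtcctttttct
TRPM1: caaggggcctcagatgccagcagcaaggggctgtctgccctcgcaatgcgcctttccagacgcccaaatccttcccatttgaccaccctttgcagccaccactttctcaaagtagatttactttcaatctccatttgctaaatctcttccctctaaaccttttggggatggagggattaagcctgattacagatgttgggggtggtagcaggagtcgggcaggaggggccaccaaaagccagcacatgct

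Pigment and melanosome genes were called more often than the background in the negative direction. Of 30 measured, 10 had a negative interaction (33.3%, against 4.85% of all genes) and 3 a positive one (10.0%, against 6.97%), and the median was -0.11, against 0.0013 over all genes. PLX4032 raised 17 of them in shMITF cells and 20 in shSCR cells, with median changes of 0.33 and 0.47. RAB27A, the GTPase that tethers melanosomes for transport, read 6.68 and 7.24 in shMITF PLX4032 cells and 6.96 and 6.78 in shMITF DMSO cells, against 10.01 and 10.11 in shSCR PLX4032 cells and 8.35 and 8.35 in shSCR DMSO cells. Its rise of 1.71 in shSCR cells stood beside an uncalled 0.10 in shMITF cells, and the interaction was -1.61 ± 0.21 with an adjusted p of 0.000577. MLANA, the melanosomal antigen Melan-A, rose with both hairpins, by 1.38 in shMITF cells and 2.24 in shSCR cells, and its interaction was -0.86 ± 0.14 with an adjusted p of 0.00171. TYR, the rate-limiting enzyme of melanin synthesis, had an interaction of -0.44 ± 0.12 with an adjusted p of 0.044, and this call was lost without any 1 of 7 of the 8 arrays. A second TYR probe set gave -0.60 with an adjusted p of 0.0158 in limma's test over all probe sets.

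Other pigment genes went the opposite way. TYRP1, an enzyme of eumelanin synthesis, read 9.03 and 9.10 in shMITF PLX4032 cells and 5.54 and 5.63 in shMITF DMSO cells, against 10.33 and 10.09 in shSCR PLX4032 cells and 8.08 and 8.20 in shSCR DMSO cells. PLX4032 raised it by 3.48 in shMITF cells and 2.07 in shSCR cells, an interaction of 1.41 ± 0.14 on the log2 scale whose sign turned on unlogged intensities. LYST, the lysosomal trafficking regulator mutated in Chediak-Higashi syndrome, read 10.36 and 10.39 in shMITF PLX4032 cells and 7.88 and 7.82 in shMITF DMSO cells, against 10.73 and 10.75 in shSCR PLX4032 cells and 10.12 and 10.0 in shSCR DMSO cells. The hairpin lowered LYST by 2.21 in DMSO and by 0.37 under PLX4032, and the interaction was 1.84 ± 0.11 with an adjusted p of 4.84e-06.

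Among 32 other genes reported as MITF targets, 10 were called negative (31.2%, against 4.85% of all genes) and 7 positive (21.9%, against 6.97%). Their median was 0.06, and its sign changed under some alternatives. The hairpin lowered 23 of the 32 under PLX4032 and 22 in DMSO. Beside TRPM1 and MET, GMPR, an enzyme of guanine nucleotide salvage, read 6.85 and 6.80 in shMITF PLX4032 cells and 5.98 and 6.17 in shMITF DMSO cells, against 9.69 and 9.40 in shSCR PLX4032 cells and 6.89 and 7.01 in shSCR DMSO cells. BCL2A1, an antiapoptotic BCL2 relative known as a melanoma lineage survival gene, fell by 0.95 in shMITF cells and rose by 0.88 in shSCR cells, an interaction of -1.84 ± 0.13. CDK2, which drives the G1 to S transition and is also a reported MITF target, fell by 1.16 in shMITF cells beside an uncalled -0.16 in shSCR cells, an interaction of -1.0 ± 0.13. PPARGC1A, the coactivator of mitochondrial biogenesis that MITF is known to drive, read 6.70 and 6.97 in shMITF PLX4032 cells and 5.66 and 5.09 in shMITF DMSO cells, against 9.63 and 9.46 in shSCR PLX4032 cells and 8.17 and 8.20 in shSCR DMSO cells. PLX4032 raised it by 1.46 in shMITF cells and by 1.36 in shSCR cells, and the interaction of 0.11 ± 0.23 was not called, with an adjusted p of 0.834 and a 95% interval of -0.39 to 0.61. The relatives of MITF (TFE3 at 0.29, adjusted p 0.185, and TFEC at 0.25, adjusted p 0.351) belong to a list of 4 with 0 calls in limma's test, and 1 of the 4 had an unadjusted p under 0.05.

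The motif TCATGTG was found in 2.5% of all 34961 promoter windows of the table, in 1.86% of the 14210 windows of tested genes, in 3.95% of the 684 windows of negative genes and in 1.35% of the 1036 windows of positive genes. Of the 24 pigment genes with a window, 6 (25.0%) held it and 5 (20.8%) held CACGTG. The TYRP1 window, chr9:12693135-12693384 (plus strand), is shown because it holds the MITF form of E-box, in capitals, beginning 145 bases before the start; it was chosen after values and sequences were seen. A match of letters is a description and not a measured site.
TYRP1: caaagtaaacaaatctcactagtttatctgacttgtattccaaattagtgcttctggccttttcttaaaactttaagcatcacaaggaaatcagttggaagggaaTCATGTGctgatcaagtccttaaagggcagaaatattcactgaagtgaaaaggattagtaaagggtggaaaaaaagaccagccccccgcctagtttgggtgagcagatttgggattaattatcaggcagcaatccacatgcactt

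Interferon-stimulated genes, the antiviral and signalling genes that STAT and IRF factors switch on, had the lowest median interaction of the 42 lists. Of 46 measured, 20 were called negative (43.5%, against 4.85% of all genes) and 1 positive, and 41 of the 46 lay below 0, with a median of -0.58. The median level of the 46 genes was 9.22 and 9.0 in shMITF PLX4032 cells and 9.47 and 9.48 in shMITF DMSO cells, against 8.09 and 7.51 in shSCR PLX4032 cells and 7.49 and 7.27 in shSCR DMSO cells. Both shMITF groups were thus above both shSCR groups, and the mean of each pair moved in opposite senses under the drug. In shSCR cells the rise was larger on PLX4032 array A, while PLX4032 array B at 7.51 lay close to DMSO array A at 7.49. The hairpin raised 39 of the 46 under PLX4032 (median change 1.21) and 43 in DMSO (median change 1.98). PLX4032 raised 1 and lowered 16 in shMITF cells (median -0.20), and raised 15 and lowered 1 in shSCR cells (median 0.20). Without shMITF DMSO B the count of negative calls was 13, and over the 8 fits without 1 array it ran from 13 to 27.

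OAS2, a sensor of double-stranded RNA, read 10.25 and 9.96 in shMITF PLX4032 cells and 11.24 and 11.16 in shMITF DMSO cells, against 8.59 and 7.5 in shSCR PLX4032 cells and 7.58 and 7.16 in shSCR DMSO cells. Its interaction of -1.77 ± 0.38 had an adjusted p of 0.0119, and the pair of shSCR PLX4032 arrays lay further apart than any other pair. RSAD2, the antiviral enzyme viperin, read 6.81 and 6.53 in shMITF PLX4032 cells and 8.53 and 8.47 in shMITF DMSO cells, against 4.96 and 4.58 in shSCR PLX4032 cells and 4.95 and 5.27 in shSCR DMSO cells. HERC5, the ligase that attaches the ubiquitin-like ISG15, read 5.34 and 5.03 in shMITF PLX4032 cells and 7.12 and 6.87 in shMITF DMSO cells, against 5.90 and 5.69 in shSCR PLX4032 cells and 5.50 and 5.33 in shSCR DMSO cells. HERC5 fell by 1.80 in shMITF cells and rose by 0.38 in shSCR cells, an interaction of -2.18 ± 0.18 with an adjusted p of 2.7e-05. DDX60L, a relative of the antiviral helicase DDX60, was instead raised by 1.33 in shSCR cells beside an uncalled -0.15 in shMITF cells. Antigen presentation genes were called negative in 10.0% of cases, against 4.85% of all genes. Of 20 measured antigen presentation genes, 2 were called negative, HLA-DMA at -0.53 and NLRC5 at -0.50; both calls were lost without at least 1 array, and a second HLA-DMA probe set gave 0.97 with an adjusted p of 0.25.

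The interferon-stimulated response element stood in 3.02% of all promoter windows, in 2.57% of those of tested genes, in 4.68% of those of negative genes and in 1.93% of those of positive genes. It stood in 21 of the 37 windows of the interferon list (56.8%). The windows of HERC5, chr4:88456869-88457118 (plus strand), and DDX60L, chr4:168480493-168480742 (minus strand), are shown because their matches can be read directly; both were chosen after values and sequences were seen. In HERC5 the capitals mark overlapping response elements that begin 125 and 119 bases before the start, another at 74 bases and a CACGTG at 33 bases, and in DDX60L they mark elements at 80 and 50 bases.
HERC5: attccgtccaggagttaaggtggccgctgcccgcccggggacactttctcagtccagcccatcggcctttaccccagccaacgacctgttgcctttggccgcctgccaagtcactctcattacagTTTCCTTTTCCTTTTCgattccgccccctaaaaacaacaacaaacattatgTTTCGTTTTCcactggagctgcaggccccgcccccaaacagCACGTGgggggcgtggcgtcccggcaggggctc
DDX60L: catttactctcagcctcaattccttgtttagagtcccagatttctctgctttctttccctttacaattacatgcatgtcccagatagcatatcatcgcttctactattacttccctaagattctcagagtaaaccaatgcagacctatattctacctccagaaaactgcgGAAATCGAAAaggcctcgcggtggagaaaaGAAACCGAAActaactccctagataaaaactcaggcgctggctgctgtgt

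Among genes known to lie downstream of ERK, the PLX4032 change in mRNA was similar with both hairpins for some and unequal for others. ERK activity itself was not measured on these arrays. DUSP6, a phosphatase that ERK induces against itself, read 8.62 and 8.61 in shMITF PLX4032 cells and 11.22 and 11.10 in shMITF DMSO cells, against 8.0 and 8.03 in shSCR PLX4032 cells and 10.64 and 10.76 in shSCR DMSO cells. It fell by 2.55 in shMITF cells and fell by 2.68 in shSCR cells, and the interaction of 0.13 ± 0.12 was not called, with an adjusted p of 0.556 and a 95% interval of -0.13 to 0.40. CCND1, the gene of cyclin D1, fell by 1.80 in shMITF cells and 1.98 in shSCR cells and had an interaction of 0.18 ± 0.12 with an adjusted p of 0.423 and a 95% interval of -0.09 to 0.45. SPRY4, a feedback inhibitor of receptor signalling, read 6.38 and 6.54 in shMITF PLX4032 cells and 11.81 and 11.71 in shMITF DMSO cells, against 6.38 and 6.23 in shSCR PLX4032 cells and 10.71 and 10.91 in shSCR DMSO cells. The hairpin raised SPRY4 by 0.95 in DMSO, the groups overlapped under PLX4032, and the interaction was -0.80 ± 0.14 with an adjusted p of 0.00416.

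The interaction was called positive for 6.97% of all genes and negative for 4.85%. Of 37 measured genes of MAPK output and feedback, PLX4032 lowered 28 in shMITF cells and 29 in shSCR cells. The interaction was positive for 11 (29.7%) and negative for 7 (18.9%), with a median of 0.14; without shMITF DMSO B the positive count was 7. DUSP10, a phosphatase of JNK and p38, rose by 0.76 in shMITF cells and fell by 1.12 in shSCR cells, an interaction of 1.88 ± 0.13. DUSP5, a nuclear ERK phosphatase, read 7.29 and 7.29 in shMITF PLX4032 cells and 10.04 and 9.94 in shMITF DMSO cells, against 6.95 and 7.13 in shSCR PLX4032 cells and 8.04 and 8.21 in shSCR DMSO cells. It was raised by the hairpin in DMSO alone by these calls, as was the cytokine IL11 (1.94 in DMSO, beside an uncalled 0.23 under PLX4032), and their interactions were -1.62 ± 0.13 and -1.71 ± 0.14.

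The ETS factors of the PEA3 group, which depend on ERK, parted from each other. ETV1 fell by 1.16 in shMITF cells and 2.41 in shSCR cells, a positive interaction of 1.25 ± 0.13. ETV4 fell by 5.15 in shMITF cells and 3.96 in shSCR cells and ETV5 by 3.33 in shMITF cells and 2.03 in shSCR cells, negative interactions of -1.20 ± 0.13 and -1.30 ± 0.12. In DMSO the hairpin made no called difference to any of the 3 (0.14 for ETV1, -0.01 for ETV4 and -0.07 for ETV5). Under PLX4032, ETV1 was higher with the MITF hairpin by 1.38, while ETV4 and ETV5 were lower by 1.21 and 1.37. Of 20 ETS factors, 2 were called positive (10.0%, against 6.97% of all genes) and 3 negative (15%, against 4.85%). ETS1 itself rose by 2.24 in shMITF cells and 1.30 in shSCR cells, an interaction of 0.95 ± 0.11 whose sign turned on unlogged intensities.

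AP-1 and immediate early factors had 7 positive calls (28.0%) and 1 negative call among 25, the negative call being lost without shMITF PLX4032 A, shMITF PLX4032 B, shMITF DMSO B or shSCR PLX4032 A. The negative share of this list was 4.0%, and the shares of all genes were 6.97% positive and 4.85% negative. JUN, the core AP-1 subunit, read 9.94 and 10.03 in shMITF PLX4032 cells and 6.90 and 7.01 in shMITF DMSO cells, against 7.93 and 8.10 in shSCR PLX4032 cells and 5.79 and 5.66 in shSCR DMSO cells. Both perturbations raised it, and the level with both exceeded the sum of the log2 changes by 0.73 ± 0.13, with an adjusted p of 0.00419. FOSL2, another AP-1 subunit, rose by 1.95 in shMITF cells and 0.40 in shSCR cells (1.56 ± 0.11), and ATF3, a stress-induced relative, by 1.56 in shMITF cells and 0.54 in shSCR cells (1.03 ± 0.19). NR4A2, an orphan nuclear receptor, read 10.89 and 10.94 in shMITF PLX4032 cells and 11.82 and 11.76 in shMITF DMSO cells, against 7.78 and 7.74 in shSCR PLX4032 cells and 10.64 and 10.68 in shSCR DMSO cells. The shSCR PLX4032 arrays alone were low, and the interaction was 2.03 ± 0.11, with its sign turned on unlogged intensities.

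**Figure D4:**
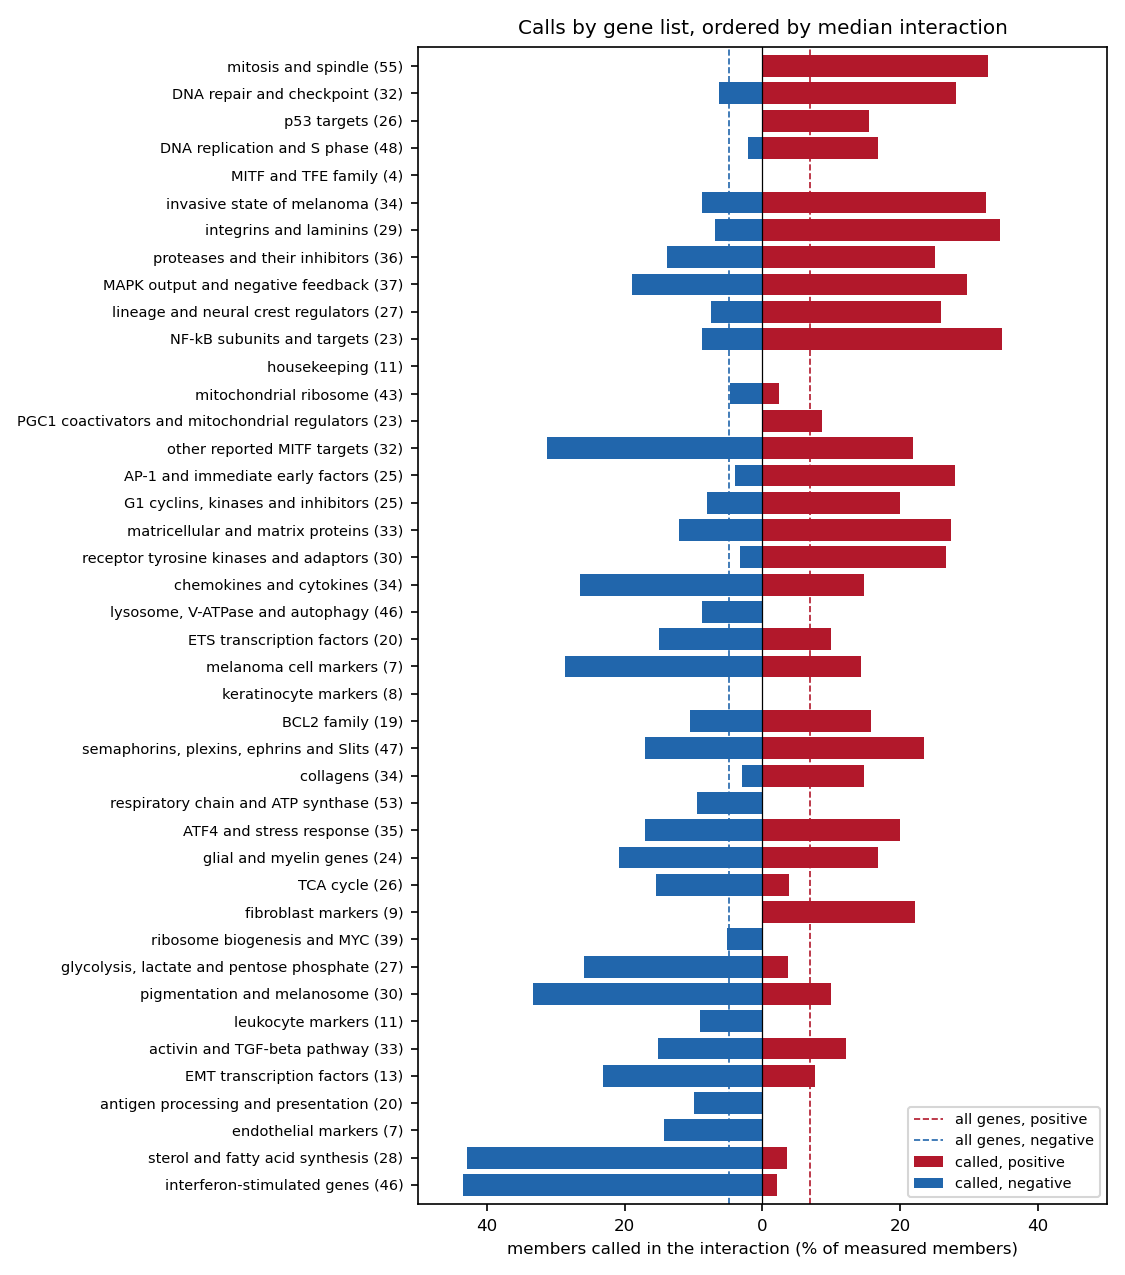
Bars give the share of each list's measured members (number in brackets) called positive (to the right) or negative (to the left) in the interaction, and dashed lines the shares of all genes, 6.97% and 4.85%. Lists run from the highest median interaction, mitosis and spindle, at the top to the lowest, interferon-stimulated genes, at the bottom.

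Genes of cell division fell under PLX4032 with both hairpins, and by less in knockdown cells for the called members. Of 55 mitosis and spindle genes, PLX4032 lowered 54 in shMITF cells and 55 in shSCR cells, with median changes of -0.85 and -1.18. Their median level was 7.59 and 7.75 in shMITF PLX4032 cells and 8.46 and 8.46 in shMITF DMSO cells, against 8.27 and 8.22 in shSCR PLX4032 cells and 9.29 and 9.47 in shSCR DMSO cells. Each perturbation lowered that median, and the shMITF PLX4032 arrays were lowest. The interaction had a median of 0.34, and 52 of the 55 lay above 0. At an unadjusted p under 0.05, 34 were positive and 0 negative. Called by limma were 18 positive (32.7%, against 6.97% of all genes) and 0 negative. The count was 6 without shMITF DMSO A or B, 7 without shMITF PLX4032 B, shSCR PLX4032 B or shSCR DMSO B, and 9 without shSCR PLX4032 A.

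BUB1B, a kinase of the spindle checkpoint, read 7.40 and 7.77 in shMITF PLX4032 cells and 8.16 and 8.13 in shMITF DMSO cells, against 8.27 and 8.23 in shSCR PLX4032 cells and 9.68 and 9.88 in shSCR DMSO cells. Its interaction was 0.97 ± 0.17 with an adjusted p of 0.00333. For KIF20A, a kinesin of cytokinesis, and ECT2, an exchange factor of the cleavage furrow, the hairpin lowered the level in DMSO (by 0.69 and 0.94) and made no called difference under PLX4032 (-0.02 and -0.17). The shares of all genes were 6.97% positive and 4.85% negative. Of 48 DNA replication genes, 8 were positive (16.7%) and 1 negative (2.08%), with a median of 0.21. Of 32 repair and checkpoint genes, 9 were positive (28.1%) and 2 negative (6.25%), with a median of 0.29. These counts also depended on single arrays: replication had 2 positive calls without shMITF DMSO B, 4 without shMITF PLX4032 B or shSCR PLX4032 A and 5 without shSCR PLX4032 B, and repair had 3 without shMITF DMSO B or shSCR PLX4032 A, 4 without shMITF PLX4032 B or shMITF DMSO A and 5 without shSCR PLX4032 B or shSCR DMSO B. The negative count of replication was 3 without shMITF PLX4032 B and 2 without shSCR DMSO B, and that of repair was 1 without any array other than shMITF PLX4032 B.

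Among these genes, POLA1, the catalytic subunit of the primase polymerase (0.85 ± 0.14), RFC5, a subunit of the clamp loader (0.78 ± 0.11), FANCB, of the Fanconi anemia core complex (0.85 ± 0.12), and POLQ, the polymerase of end joining (0.83 ± 0.13), fell less under PLX4032 in shMITF cells or were not called there. CDC6, the replication licensing factor, went against them: it read 6.84 and 6.90 in shMITF PLX4032 cells and 9.37 and 9.51 in shMITF DMSO cells, against 8.67 and 8.67 in shSCR PLX4032 cells and 10.08 and 10.26 in shSCR DMSO cells. It fell by 2.57 in shMITF cells and 1.5 in shSCR cells, an interaction of -1.07 ± 0.13 whose sign turned on unlogged intensities. ATM, the kinase of the double-strand break response, was also negative, at -0.72 ± 0.15. The factors E2F2 (1.02 ± 0.18) and E2F8 (0.98 ± 0.12), from a list of 25 G1 regulators with 5 positive and 2 negative calls, were positive; that positive count was 3 without shMITF PLX4032 B, shMITF DMSO A, shMITF DMSO B or shSCR PLX4032 B, and the negative count was 1 without shMITF DMSO A. MYC fell by 1.76 in shMITF cells and 0.79 in shSCR cells, an interaction of -0.96 ± 0.14 with an adjusted p of 0.00103.

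Sterol and fatty acid synthesis genes, which SREBP factors control, were the second list with a low median. Of 28 measured, 12 were negative (42.9%, against 4.85% of all genes) and 1 positive, and the median was -0.34. The median level was 8.65 and 8.51 in shMITF PLX4032 cells and 9.16 and 9.06 in shMITF DMSO cells, against 9.40 and 9.25 in shSCR PLX4032 cells and 9.24 and 9.21 in shSCR DMSO cells, so that the shMITF PLX4032 arrays were lowest. PLX4032 lowered 16 and raised 2 in shMITF cells, and lowered 8 and raised 6 in shSCR cells. ELOVL6, an elongase of long-chain fatty acids, read 6.72 and 7.01 in shMITF PLX4032 cells and 8.35 and 8.23 in shMITF DMSO cells, against 8.89 and 8.72 in shSCR PLX4032 cells and 8.90 and 9.17 in shSCR DMSO cells. It fell by 1.43 with the MITF hairpin beside an uncalled -0.23 with the scrambled one (-1.19 ± 0.17, adjusted p 0.00105). STARD4, a cholesterol transporter (-1.08 ± 0.16), and ACSS2, which makes acetyl-CoA from acetate (-1.07 ± 0.12), were similar in form. TM7SF2, a sterol reductase, was the positive member, at 1.55 ± 0.12. Without 1 array the negative count of this list ran from 9 to 11.

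**Figure D5:**
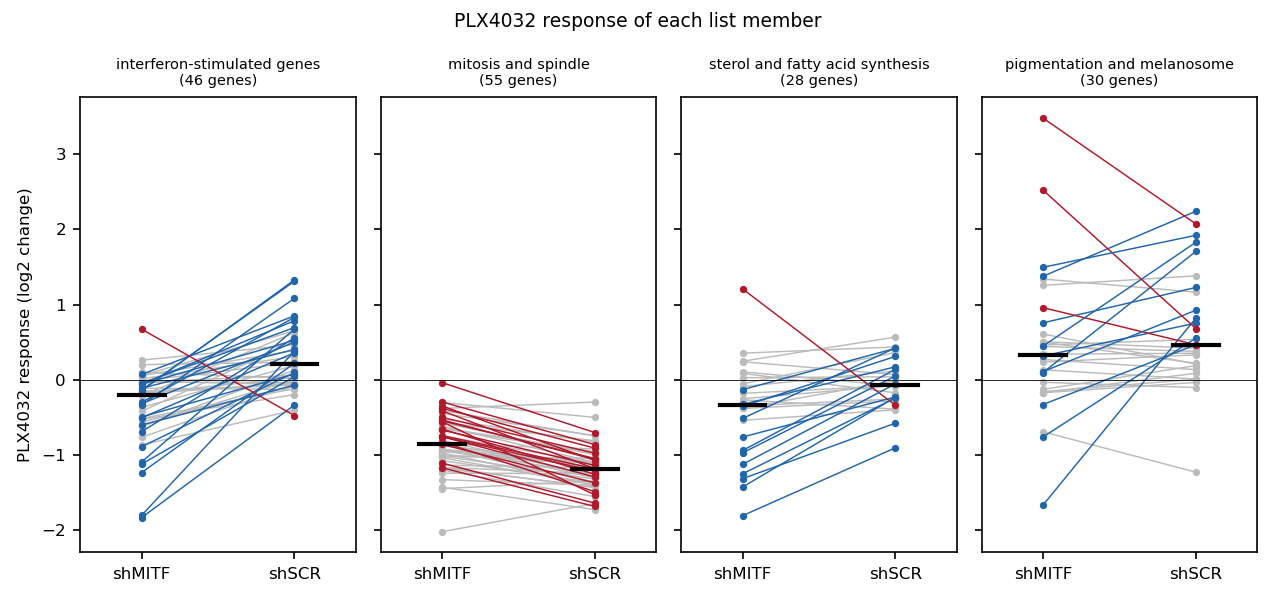
Lines join each list member's PLX4032 response in shMITF cells (left) to that in shSCR cells (right), in log2 change, red where the interaction was called positive, blue where called negative and grey otherwise; black bars are medians. The interferon medians are -0.20 and 0.20, the mitosis medians -0.85 and -1.18, and the pigment list holds called members of both signs.

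Other metabolic lists had medians closer to 0. Their shares below stand against 6.97% of all genes called positive and 4.85% called negative. The negative share of ribosome biogenesis and MYC genes, 5.13%, was close to that of all genes. Of 53 respiratory chain and ATP synthase genes, 5 were negative (9.43%) and 0 positive by limma (1 positive at an unadjusted p under 0.05), with a median of -0.06, and the negative count was 1 to 3 without shMITF PLX4032 A, shMITF DMSO A, shMITF DMSO B, shSCR PLX4032 A, shSCR PLX4032 B or shSCR DMSO A. COX7B, a subunit of cytochrome c oxidase, fell by 0.62 in shMITF cells and rose by 0.33 in shSCR cells (-0.94 ± 0.15). Of 27 glycolysis and pentose phosphate genes, 7 were negative (25.9%) and 1 positive, among them PFKFB3, which makes the activator of phosphofructokinase (-0.61 ± 0.11), and PFKP, a phosphofructokinase (-0.59 ± 0.11, its sign turned on unlogged intensities). That negative count was 2 without shMITF DMSO A, 3 without shSCR PLX4032 A and 4 without shMITF PLX4032 B, shMITF DMSO B, shSCR PLX4032 B or shSCR DMSO B, and the positive call was lost without shMITF PLX4032 B, shMITF DMSO B, shSCR PLX4032 A or shSCR DMSO B. PC, pyruvate carboxylase, fell by 0.43 in shMITF cells and rose by 0.87 in shSCR cells (-1.29 ± 0.12). PLX4032 raised 26 of 46 lysosome and autophagy genes in shMITF cells and 28 in shSCR cells. Of the 46, 4 were negative (8.7%, against 4.85% of all genes) and 0 positive by limma (2 positive at an unadjusted p under 0.05). ATG2A, a lipid transfer protein of autophagosome growth, was among the negative ones at -1.12 ± 0.12. Of 23 genes of the PGC1 coactivator list, 2 were positive (8.7%, against 6.97% of all genes), PPARG (1.10 ± 0.19) and NRF1 (0.60 ± 0.12). Of the TCA cycle list, 15.4% were called negative and 3.85% positive, against 4.85% and 6.97% of all genes. Of 26 TCA cycle genes, 4 were negative and 1 positive, the negative count being 1 or 2 without shMITF PLX4032 A, shMITF PLX4032 B, shMITF DMSO A, shMITF DMSO B, shSCR PLX4032 A or shSCR DMSO A. Of 43 mitochondrial ribosome genes, 2 were negative (4.65%, against 4.85% of all genes) and 1 positive (2.33%, against 6.97%), neither share being above that of all genes, and the positive call was lost without shMITF PLX4032 B, shMITF DMSO A, shMITF DMSO B or shSCR PLX4032 B. Of 39 genes of ribosome biogenesis and MYC, 2 were negative (5.13%), MYC itself and RRP12 (-0.60 ± 0.11), with 0 positive by limma (2 without shMITF PLX4032 A and 1 without shSCR DMSO A) and 5 positive at an unadjusted p under 0.05.

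Receptor and neural crest genes had more positive than negative calls. Of 30 receptor tyrosine kinases and adaptors, 8 were positive (26.7%, against 6.97% of all genes) and MET was the 1 negative (3.33%, against 4.85%); the positive count was 5 without shMITF DMSO B or shSCR PLX4032 B. EPHA2, an ephrin receptor, read 7.89 and 7.97 in shMITF PLX4032 cells and 7.55 and 7.54 in shMITF DMSO cells, against 6.14 and 6.33 in shSCR PLX4032 cells and 7.22 and 7.26 in shSCR DMSO cells. It rose by 0.38 in shMITF cells and fell by 1.01 in shSCR cells (1.39 ± 0.12), and MERTK, a receptor of the TAM family, rose by 0.30 in shMITF cells and fell by 0.82 in shSCR cells (1.11 ± 0.11). SHC4, an adaptor of these receptors, rose by 2.5 in shMITF cells and 1.13 in shSCR cells (1.37 ± 0.12). Among 27 lineage and neural crest regulators, 7 were positive (25.9%, against 6.97% of all genes) and 2 negative (7.41%, against 4.85%). NGFR, the nerve growth factor receptor of neural crest cells, read 10.57 and 10.62 in shMITF PLX4032 cells and 8.67 and 8.63 in shMITF DMSO cells, against 7.46 and 7.49 in shSCR PLX4032 cells and 7.15 and 7.12 in shSCR DMSO cells. Each perturbation raised it and the combination raised it most, with an interaction of 1.61 ± 0.11 and an adjusted p of 7.25e-06. FOXD3, a neural crest transcription factor, read 10.24 and 10.13 in shMITF PLX4032 cells and 7.57 and 7.49 in shMITF DMSO cells, against 8.12 and 7.96 in shSCR PLX4032 cells and 7.16 and 6.83 in shSCR DMSO cells, an interaction of 1.62 ± 0.16.

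Genes of the invasive melanoma state gave 11 positive calls (32.4%, against 6.97% of all genes) and 3 negative calls (8.82%, against 4.85%) among 34. Their median was 0.21. PLX4032 lowered 11 of them in shMITF cells and 18 in shSCR cells. Integrins and laminins gave 10 positive calls (34.5%) and 2 negative calls (6.9%) among 29, with a median of 0.19, and ITGA2 led them. ITGB8, a subunit of a receptor for latent TGF-beta, fell by 1.15 in shSCR cells beside an uncalled -0.04 in shMITF cells (1.11 ± 0.12). ITGA9, a tenascin receptor subunit, went the other way: it read 7.21 and 7.19 in shMITF PLX4032 cells and 8.62 and 8.36 in shMITF DMSO cells, against 7.68 and 7.49 in shSCR PLX4032 cells and 6.99 and 6.92 in shSCR DMSO cells, an interaction of -1.92 ± 0.15. Of 13 EMT transcription factors, ZEB2 was positive at 0.72 ± 0.11, while a second ZEB2 probe set gave an uncalled 0.64 (adjusted p 0.227 in limma's test). ZEB1 (-0.60 ± 0.13), SNAI2 (-0.52 ± 0.13) and SNAI1 (-0.49 ± 0.13) were negative. The shares of the 13 were 7.69% positive and 23.1% negative, against 6.97% and 4.85% of all genes. Each of these 3 negative calls was lost without at least 1 array, and 0 or 1 of them stood without shMITF PLX4032 A, shMITF DMSO A, shMITF DMSO B, shSCR PLX4032 A or shSCR DMSO A.

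Matrix genes were called in both directions. Of 33 matricellular and matrix proteins, 9 were positive (27.3%, against 6.97% of all genes) and 4 negative (12.1%, against 4.85%). VCAN, the proteoglycan versican, read 11.64 and 11.77 in shMITF PLX4032 cells and 11.02 and 10.82 in shMITF DMSO cells, against 7.84 and 8.09 in shSCR PLX4032 cells and 9.01 and 9.01 in shSCR DMSO cells. It rose by 0.79 in shMITF cells and fell by 1.05 in shSCR cells, an interaction of 1.83 ± 0.15. EDIL3, an integrin ligand, rose by 1.56 in shMITF cells beside an uncalled -0.21 in shSCR cells (1.78 ± 0.16). Of 34 collagens, 5 were positive (14.7%, against 6.97% of all genes) and 1 negative (2.94%, against 4.85%). Of 36 proteases and inhibitors, 9 were positive (25.0%) and 5 negative (13.9%), with ADAM19, a sheddase, at 1.48 ± 0.13 and SERPINF1, the secreted factor PEDF, at -1.18 ± 0.14. Guidance genes gave 11 positive (23.4%) and 8 negative (17.0%) calls among 47. SEMA3D, a secreted semaphorin, rose by 1.48 in shMITF cells and fell by 0.76 in shSCR cells (2.24 ± 0.12), whereas PLXNA2, a semaphorin receptor, rose by 1.07 in shSCR cells beside an uncalled -0.02 in shMITF cells (-1.09 ± 0.12).

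Glial and myelin genes, which neural crest derived melanoma cells can express, included rises that PLX4032 made in scrambled cells and, to a lesser degree, in knockdown cells. Of this list, 20.8% were called negative and 16.7% positive, against 4.85% and 6.97% of all genes. MBP, myelin basic protein, read 6.82 and 6.90 in shMITF PLX4032 cells and 5.57 and 5.68 in shMITF DMSO cells, against 9.08 and 9.07 in shSCR PLX4032 cells and 5.92 and 6.11 in shSCR DMSO cells. PLX4032 raised it by 1.24 in shMITF cells and 3.06 in shSCR cells, an interaction of -1.83 ± 0.13 with an adjusted p of 9.24e-06. LGI3, a secreted leucine-rich protein, rose by 1.12 in shMITF cells and 2.94 in shSCR cells (-1.82 ± 0.12). CDH19, a cadherin of Schwann cell precursors, was opposite: it read 10.33 and 10.42 in shMITF PLX4032 cells and 10.46 and 10.45 in shMITF DMSO cells, against 7.29 and 7.33 in shSCR PLX4032 cells and 8.97 and 9.17 in shSCR DMSO cells, an interaction of 1.68 ± 0.13. Of the 24 measured, 5 were negative and 4 positive, the positive count being 2 without shMITF PLX4032 B, shMITF DMSO A, shMITF DMSO B, shSCR PLX4032 A, shSCR PLX4032 B or shSCR DMSO A.

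Secreted signals and NF-kB genes also divided. In the chemokine and cytokine list 14.7% were called positive and 26.5% negative, and in the NF-kB list 34.8% and 8.7%. The shares of all genes were 6.97% and 4.85%. Of 34 chemokines and cytokines, 9 were negative (26.5%) and 5 positive; the negative count was 5 without shMITF DMSO A or shSCR PLX4032 A. IL24, an IL-10 family cytokine, rose by 1.83 in shMITF cells beside an uncalled -0.36 in shSCR cells (2.19 ± 0.29), and CXCL11, an interferon-induced chemokine, fell by 1.99 in shMITF cells and 0.53 in shSCR cells (-1.46 ± 0.15). Of 23 NF-kB subunits and targets, 8 were positive (34.8%) and 2 negative, the negative count being 1 without shMITF PLX4032 B, shMITF DMSO A, shMITF DMSO B, shSCR PLX4032 A, shSCR PLX4032 B or shSCR DMSO A. TNFAIP3, the inhibitory ubiquitin editor A20, read 7.42 and 7.61 in shMITF PLX4032 cells and 8.39 and 8.45 in shMITF DMSO cells, against 6.23 and 6.21 in shSCR PLX4032 cells and 8.86 and 8.89 in shSCR DMSO cells, an interaction of 1.76 ± 0.12. TRAF1, an adaptor of TNF receptors, was raised by the hairpin by 0.41 under PLX4032 and 2.56 in DMSO (-2.15 ± 0.16). The activin and TGF-beta list had 4 positive (12.1%, against 6.97% of all genes) and 5 negative (15.2%, against 4.85%) calls among 33. INHBA, the subunit of activin A, read 7.41 and 7.41 in shMITF PLX4032 cells and 11.59 and 11.57 in shMITF DMSO cells, against 6.68 and 6.41 in shSCR PLX4032 cells and 8.72 and 8.96 in shSCR DMSO cells. It fell by 4.18 in shMITF cells and 2.29 in shSCR cells (-1.88 ± 0.15), whereas TGFB3 fell by 0.98 in shSCR cells beside an uncalled 0.27 in shMITF cells (1.25 ± 0.14).

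Genes of the BCL2 family and of the ATF4 and stress list were called in both directions, and p53 targets only in the positive one. Of the BCL2 family, 15.8% were called positive and 10.5% negative, and of the ATF4 and stress list 20% and 17.1%. Of the p53 targets, 15.4% were called positive. Over all genes these shares were 6.97% positive and 4.85% negative. Of 19 BCL2 family genes, 3 were positive and 2 negative; the positive count was 1 without shMITF DMSO B or shSCR PLX4032 A, and the negative count was 1 without shMITF DMSO A, shMITF DMSO B, shSCR PLX4032 A or shSCR DMSO A. BCL2A1, described above at -1.84, had the called interaction farthest from 0 in the list. BMF, a killer protein known to rise when ERK is blocked, read 9.69 and 9.63 in shMITF PLX4032 cells and 6.47 and 6.30 in shMITF DMSO cells, against 9.02 and 9.13 in shSCR PLX4032 cells and 6.59 and 6.58 in shSCR DMSO cells. It rose by 3.27 in shMITF cells and 2.49 in shSCR cells, an interaction of 0.78 ± 0.12 with an adjusted p of 0.00203. BCL2 (0.82 ± 0.19) and BAK1 (-0.55 ± 0.14) were also called, each with the call lost without at least 1 array. Of 26 p53 targets, 4 were positive and 0 negative by limma (1 negative at an unadjusted p under 0.05), with a median of 0.26 and DDB2, a DNA damage binding protein, highest at 0.86 ± 0.11; the positive count was 1 or 2 without shMITF PLX4032 A, shMITF PLX4032 B, shMITF DMSO A, shMITF DMSO B, shSCR PLX4032 A, shSCR PLX4032 B or shSCR DMSO B. Of 35 ATF4 and stress genes, 7 were positive and 6 negative; the positive count was 4 without shSCR PLX4032 B.

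Marker lists of 4 other cell types were measured. Fibroblast markers had 2 of 9 called (POSTN at 1.52 and COL1A2 at 0.49, both positive), a share of 22.2% against 6.97% of all genes, and 1 without shMITF PLX4032 A, shMITF DMSO A, shMITF DMSO B, shSCR PLX4032 A or shSCR PLX4032 B. Leukocyte markers had 1 of 11 called (CD68, negative at -0.51), a share of 9.09% against 4.85% of all genes, and that call was lost without any 1 array other than shSCR PLX4032 B or shSCR DMSO B. Endothelial markers had 1 of 7 called (EMCN, negative at -0.79), a share of 14.3%, with 0 called without shMITF DMSO A or shSCR PLX4032 B and 2 without shSCR DMSO A. Keratinocyte markers had 0 of 8 called by limma (2 at an unadjusted p under 0.05). The part of these cell types in the results was not tested. The median level of the leukocyte list was 4.39 in shMITF PLX4032 cells and 4.42 in shMITF DMSO cells, against 4.46 in shSCR PLX4032 cells and 4.40 in shSCR DMSO cells. Melanoma markers were measured for 7 genes, of which 1 was called positive and 2 negative (1 without any array other than shSCR DMSO B), with a median level of 11.04 in shMITF PLX4032 cells and 10.53 in shMITF DMSO cells, against 10.93 in shSCR PLX4032 cells and 10.45 in shSCR DMSO cells. Of 11 housekeeping genes, 0 were called by limma (3 at an unadjusted p under 0.05), and the interaction farthest from 0 was that of TFRC, -0.49 with an adjusted p of 0.0689.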

How the data were processed

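Total RNA of 8 COLO829 samples was read on 1 Affymetrix Human Gene ST array each. The authors deposited 1 log2 intensity for every probe set and array, made with RMA (background correction, quantile normalization and probe summary), per the submitters' processing notes; its version and the genome build are not given in the sources used. Quantile normalization removes a shift shared by most genes, and RMA compresses changes of dim and very bright probe sets. Scanner files were not used here.

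Of 32321 probe sets, 19158 had exactly 1 gene symbol in the platform annotation, 1388 had several and 11775 none; 19128 matched a RefSeq gene record. For 637 genes with several probe sets, only that of highest mean level over the 8 arrays was kept, leaving 18404 genes. Means per group were fitted over all 8 arrays with limma 3.58.1 (R 4.3.3; lmFit and eBayes, 4 residual and 6.73 prior degrees of freedom), with two-sided p-values adjusted by Benjamini-Hochberg across the 18404 genes of a contrast and called under 0.05. The procedure was tested on simulated data. Only 2 arrays per group limit the precision. Errors are standard errors of the fit.

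Members, the 42 gene lists and the motifs were chosen with earlier results of these data known. Named are MITF, PPARGC1A, TRPM1, MLANA, TYR, MET, DUSP6, SPRY4, CCND1, the 15 largest interactions in each direction, and up to 4 called members per list with the largest size (up to 2 where none was called). Lists are described by counts and medians, without a test. Promoter windows come from RefSeq (GRCh38.p14; 14210 tested genes matched). Alternatives were the probe set rule, a filter on dim genes, repeated quantile normalization, median centring, an intensity trend, array weights, the replicate letter as a block, leaving out each array, a 1.5-fold minimum and unlogged intensities.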

Additional observations from a re-analysis of the deposited data

Results flagged for a closer look

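Among the named genes with a called interaction, PLX4032 moved 23 in opposite directions with the 2 hairpins, each response called in its own contrast. The called interaction was a condition of the choice and is no further evidence for these genes. The interaction was positive for 13 and negative for 10.

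Of those that rose in shMITF cells and fell in shSCR cells, UBD had an interaction of 3.49 (2.93 in shMITF, -0.56 in shSCR), ITGA2 2.89 (2.47 in shMITF, -0.42 in shSCR), SYNE3 2.88 (2.23 in shMITF, -0.65 in shSCR), PODXL 2.52 (0.94 in shMITF, -1.58 in shSCR), SQOR 2.37 (0.65 in shMITF, -1.72 in shSCR) and CXADR 2.29 (0.82 in shMITF, -1.47 in shSCR). SEMA3D had 2.24 (1.48 in shMITF, -0.76 in shSCR), DUSP10 1.88 (0.76 in shMITF, -1.12 in shSCR), VCAN 1.83 (0.79 in shMITF, -1.05 in shSCR), TM7SF2 1.55 (1.21 in shMITF, -0.34 in shSCR), POSTN 1.52 (0.79 in shMITF, -0.72 in shSCR), EPHA2 1.39 (0.38 in shMITF, -1.01 in shSCR) and MERTK 1.11 (0.30 in shMITF, -0.82 in shSCR). The fall of UBD in shSCR cells was near the threshold, with an adjusted p of 0.0491 in limma's test. Both shSCR B arrays read 4.91 for UBD, so the fall rests on the A arrays.

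Of those that fell in shMITF cells and rose in shSCR cells, CST1 had -2.80 (-1.54 in shMITF, 1.26 in shSCR), CCN2 -2.78 (-2.39 in shMITF, 0.39 in shSCR), SOCS6 -2.52 (-0.73 in shMITF, 1.79 in shSCR), SLC45A2 -2.49 (-1.67 in shMITF, 0.82 in shSCR) and MET -2.48 (-1.12 in shMITF, 1.36 in shSCR). HERC5 had -2.18 (-1.80 in shMITF, 0.38 in shSCR), ITGA9 -1.92 (-1.29 in shMITF, 0.63 in shSCR), BCL2A1 -1.84 (-0.95 in shMITF, 0.88 in shSCR), PC -1.29 (-0.43 in shMITF, 0.87 in shSCR) and COX7B -0.94 (-0.62 in shMITF, 0.33 in shSCR). These genes were chosen among the named ones by the calls themselves, so their shared pattern is a description.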

How the results depend on the processing

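Called genes numbered 2176 (1283 positive, 893 negative). Leaving out 1 array gave 1278 to 2132 calls, 702 to 1359 of them positive and 543 to 821 negative; the single array left in a group is then assumed to vary like the other groups. A minimum of 1.5-fold gave 1389 calls, 804 positive and 585 negative. The other alternatives gave 2112 to 2790 calls, 0 of the 2176 was called in the opposite direction under any of them, and 57.6% to 99.0% of the 2176 stayed called with the same sign, over all settings that refit the genes. The positive share was 59.0%, 51.8% with repeated quantile normalization and 53% with median centring.

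HLA-DMA turned from -0.53 to 0.22 when its probe sets were averaged. Of the 147 named calls, 27 were lost without at least 1 array. On unlogged intensities 2113 calls kept their sign.

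The letters A and B did not pair the arrays over all 4 groups. Correlations between groups of the deviations of A from the group mean ran from -0.094 to 0.329. The highest was between shMITF PLX4032 and shSCR DMSO, and the others were negative. These 2 groups enter the interaction with the same sign, so deviations that they share add up in it. The replicate block gave 2176 calls, 1276 positive and 900 negative, with 3 named calls lost. Some list counts moved by over 1.5 times. With the dimmest 40% of genes left out there were 7 positive p53 targets (4 in the full fit), 5 negative cytokines (9), 5 negative lineage regulators (2), 3 negative receptor genes (1), 4 negative replication (1), antigen presentation (2) and BCL2 family genes (2) and 6 negative ribosome biogenesis genes (2). With the intensity trend there were 10 positive p53 targets, 10 negative ATF4 genes (6), 3 positive glycolysis genes (1), 3 negative receptor genes, 4 negative lineage regulators and replication genes and 5 negative ribosome biogenesis genes. Repeated quantile normalization gave 8 negative activin and TGF-beta genes (5), 7 negative ribosome biogenesis genes, 4 negative lineage regulators and BCL2 family genes and 3 negative replication genes. Centring gave 4 negative lineage regulators, array weights 3 negative replication genes, and the block 3 negative replication genes and 2 positive glial genes (4). The cause was not tested. Signal over background is not known without detection calls.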
